A study of Mus musculus with 22 samples.

Results

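The mitochondrially encoded genes are the genes carried by the small circular DNA of the mitochondrion itself. They were chosen by name alone: every gene whose mouse symbol, looked up from its Ensembl identifier, starts with mt-. There were 37 of them among the 43430 genes of each table, made up of 13 protein genes, 2 ribosomal RNA (rRNA) genes and 22 transfer RNA (tRNA) genes, and all 37 were listed in each of the 3 tables. Levels are in FPKM, which counts sequenced fragments relative to gene length and library depth. Comparison between genes is limited where a gene shares its sequence with another place in the genome, as described below.

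RNA was sequenced in bulk from CD45.1+ thymocytes at the CD4+CD8+ stage, called double-positive, of mice carrying E2aF/F alleles. E2a has the gene symbol Tcf3 and encodes E proteins, transcription factors of lymphocyte development. The 22 libraries fell into 7 groups in 3 tables, and the comparisons ask how loss of E2a in each setting altered thymocyte gene expression. The 4-week Vav table held 3 controls (E2aF/F, no Cre named) and 3 knockouts (VavCre E2aF/F), all 4 weeks of age and untreated. In the Lck table were 3 controls (E2aF/F) and 3 knockouts (LckCre E2aF/F), also 4 weeks of age and untreated. The 8-week table held 3 untreated controls (E2aF/F), 3 untreated knockouts (VavCre E2aF/F) and 4 transplanted knockouts (VavCre E2aF/F, sublethally irradiated and given wild-type bone marrow, with cells taken 4 weeks later). Vav is active across blood cell lineages and Lck in developing T cells, so the Cre drivers differ in when and where they delete. The labels leave unsaid which cells of the transplanted mice, host or donor, were CD45.1+. Libraries are called replicates without animals being named, and p-values therefore reflect only how these libraries spread, which may be technical.

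Tcf3 lay between 6.39 and 8.22 FPKM in the 9 control libraries and between 1.15 and 2.32 FPKM in the 13 knockout libraries. The transplanted libraries had 1.22, 1.31, 2.32 and 1.21 FPKM, with the highest in replicate 3. Untransplanted 8-week knockouts had 2.13, 1.23 and 2.01 FPKM and the 8-week controls 7.59, 7.52 and 7.49 FPKM. The transplanted libraries were thus at the level of the knockouts, and their share of donor cells was not tested. The smallest steps between low FPKM values implied between 5.48 M reads (Lck knockout replicate 2) and 37.5 M reads (4-week Vav control replicate 3) per library. The third transplanted library stood apart from the other transplanted ones: it had 389 FPKM of Cd4 and 767 FPKM of Rag1, against 96.8 to 183 FPKM and 228 to 330 FPKM in the others. In the Lck table the knockout replicates 2 and 3 held 22949 and 18534 FPKM of Gm23935, a short gene annotated as a miRNA, and replicate 1 held 844 FPKM. The controls of that table had 1365, 8134 and 3162 FPKM, and the other tables reached 9792 FPKM. Values without these libraries are given beside the main results they touch.

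Mitochondrial DNA is transcribed from both strands into long precursors, which are cut largely at the tRNA sequences that lie between the other genes. Its protein genes encode core subunits of the respiratory chain: the mt-Nd genes belong to complex I, mt-Cytb to complex III, the mt-Co genes to complex IV and the mt-Atp genes to the ATP synthase, while mt-Rnr1 and mt-Rnr2 are the RNAs of the mitochondrial ribosome. Most genes are read from the heavy strand, and mt-Nd6 is the only protein gene read from the light strand. The other parts of the respiratory chain, and all factors that copy, transcribe and process this genome, are encoded in the nucleus.

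Sequences bear on what a value in these tables can mean, because neighbouring genes overlap and because stretches of mitochondrial DNA have near-identical copies in the nuclear genome. The coordinates are those of mm10, with sequences from the GENCODE M21 transcripts. The first pair shows the tail-to-tail overlap of mt-Nd5 (last 40 bases, chrM:13526-13565, plus strand) and mt-Nd6 (last 40 bases, chrM:13552-13591, minus strand), whose 14 shared bases are in capitals.
mt-Nd5: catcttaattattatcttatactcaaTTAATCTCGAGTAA
mt-Nd6: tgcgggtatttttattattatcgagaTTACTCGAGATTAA
Each is given 5′ to 3′, so the capitals of the one are the reverse complement of the capitals of the other. The sources used here do not say whether strand entered the counting, so a fragment of either strand over mt-Nd6 cannot be told apart.

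The second pair shows how little separates a mitochondrial gene from its nuclear copy. The first 60 bases of mt-Nd3 (chrM:9459-9518, plus strand) stand beside those of Gm28438 (chr1:24613060-24613119, minus strand), an unprocessed pseudogene, with the differing base in capitals.
mt-Nd3: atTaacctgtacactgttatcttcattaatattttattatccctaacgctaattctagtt
Gm28438: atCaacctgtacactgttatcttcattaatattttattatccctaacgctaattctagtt
Counted from the first base of mt-Nd3, the difference is T3C, and it is the 1 difference in 345 aligned bases. Gm28438 is 1 of 7 annotated pseudogenes on chromosome 1 (24611535 to 24616197, minus strand) that follow the order of the mitochondrial genes: Gm29216 (mt-Co1), Gm28661 (mt-Co2), Gm10925 (mt-Atp6), Gm28437 (mt-Co3), Gm28438 (mt-Nd3), Gm10222 (mt-Nd4l) and Gm28439 (mt-Nd4). The aligned parts of Gm28661, Gm10925, Gm28437, Gm10222 and Gm28439 had 0 differences from the mitochondrial gene, and Gm29216 had 6 in 492 bases.

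The third pair is the only tRNA with an appreciable level, mt-Tp (proline; chrM:15356-15422, minus strand), and its neighbour mt-Tt (threonine; chrM:15289-15355, plus strand), which was listed at 0 FPKM in all libraries.
mt-Tp: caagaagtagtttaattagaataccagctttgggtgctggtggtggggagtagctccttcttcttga
mt-Tt: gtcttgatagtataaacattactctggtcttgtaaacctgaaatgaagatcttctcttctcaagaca
Both are 67 bases long and they adjoin with 0 bases between them. No annotated gene follows mt-Tp.

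The protein genes fell into a high and a low set. Across all libraries mt-Nd1, mt-Nd2, mt-Co1, mt-Nd4, mt-Nd5, mt-Nd6 and mt-Cytb lay between 237 and 6422 FPKM. By contrast mt-Co2, mt-Atp8, mt-Atp6, mt-Co3, mt-Nd3 and mt-Nd4l lay between 0 and 49.8 FPKM. Co1 mRNA led in every library and took 36.0% to 41.2% of the summed protein-gene FPKM as a group mean, followed by mt-Cytb with 18.9% to 22.5%. Both rRNAs lay at 154 to 522 FPKM, overlapping the lower end of the high set, which is the level after whatever rRNA selection the library kit makes.

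The 6 low protein genes are those that lie whole within the chromosome 1 copy, which for mt-Atp8 was inferred from gene order. Of all 50-base windows of each gene, 100% of mt-Co2, 99.5% of mt-Atp6, 99.9% of mt-Co3, 97.99% of mt-Nd3 and 98.8% of mt-Nd4l were found identically in an annotated nuclear transcript. For mt-Atp8 the share was 0%. By gene order most of its counterpart would lie between Gm28661 and Gm10925, outside the annotated pseudogenes, but no sequence there was compared. Among the 7 high genes, mt-Co1 (51.1%) and mt-Nd4 (62.2%) shared part of their windows, mt-Nd2 (8.19%) and mt-Nd5 (7.61%) little, and mt-Nd1, mt-Nd6 and mt-Cytb none (0%). The sources used here do not say how the authors counted fragments that match 2 places, so the 6 low genes and their copies are uncertain one by one, and the levels of mt-Co1 and mt-Nd4 may be affected in part.

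The low set also differed between tables. The log2 ratio of the 6 genes' summed FPKM to mt-Co1 was -7.26, -6.98 and -7.06 in the 4-week Vav controls, -6.48, -6.53 and -6.52 in the Lck controls and -5.16, -5.15 and -5.43 in the 8-week controls. Controls of the 8-week table were thus highest and did not overlap the others. The tables were treated as separately normalized and these values were not tested across them.

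Of the 22 tRNAs, 14 were listed at 0 in all libraries. Single reads were worth 0.356 to 3.09 FPKM in a tRNA, and mt-Tl1, mt-Ta, mt-Tn, mt-Tc, mt-Ts1, mt-Th and mt-Te had at most 4 implied reads in any library (mt-Tc in the untransplanted 8-week knockout replicates 1 and 3). By counting error alone, a 0 in a tRNA allows up to 3 reads. The tRNAs lie next to or overlap other genes, however. The sources used here do not say how fragments that reach into a neighbouring gene were counted. A 0 therefore does not bound the level of a tRNA, and the part of depth in the 0 values was not tested. Among the tRNAs mt-Tp was the exception, with 158 to 342 FPKM and 92.9 to 834 implied reads per library. The tRNAs with more than 3 reads in all, mt-Tp, mt-Tc, mt-Tn, mt-Ts1 and mt-Te, were 5 of the 8 light-strand tRNAs. The 14 heavy-strand tRNAs together had at most 0.793 FPKM in a library. Gaps without an annotated gene also differed: mt-Tn and mt-Tc border one of 32 bases, mt-Te one of 5, and no gene follows mt-Tp. However, mt-Ts1 overlaps its neighbour by 3 bases, and the heavy-strand mt-Tf, with no gene before it in the coordinates, was at 0. The part of strand and of these gaps in the tRNA values was not tested.

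**Figure D1:**
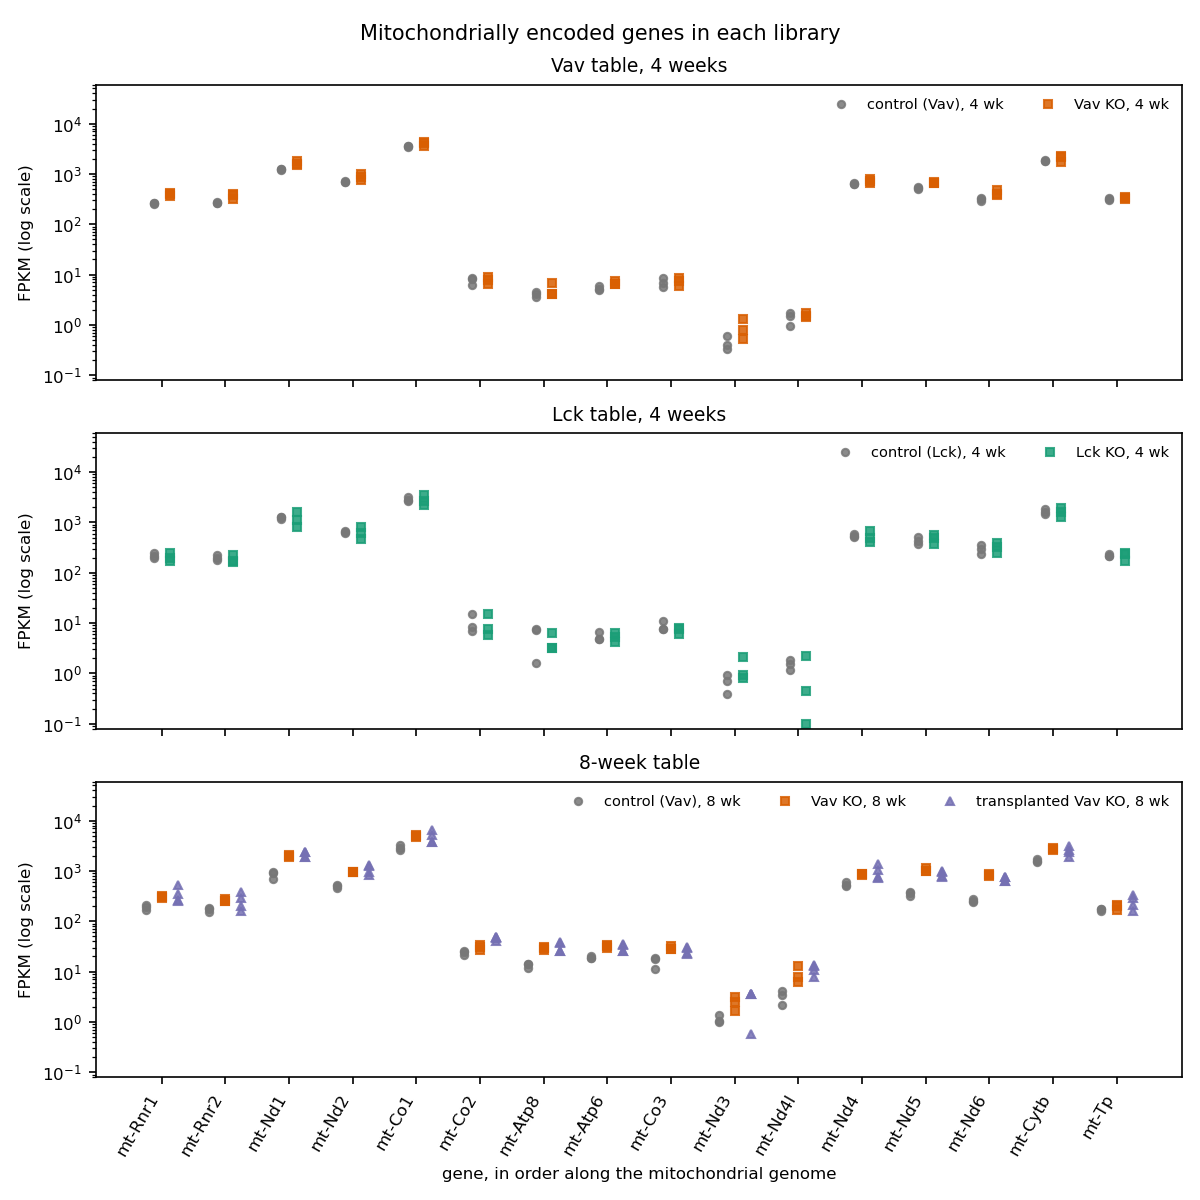
FPKM (log axis) of the 13 protein genes, 2 rRNAs and mt-Tp in every library, 1 point per library, with the genes in genome order and 1 panel per table; a value of 0 is drawn at 0.1. The 6 protein genes from mt-Co2 to mt-Nd4l lie at or below 49.8 FPKM, and the 7 others at 237 FPKM or more.

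Summed over the 13 protein genes, the level was higher in the Vav knockouts than in their controls at both ages and similar in the Lck table. The 4-week Vav controls had 8853, 9054 and 8657 FPKM and the knockouts 9429, 10885 and 11149 FPKM, a mean ratio of 1.18. The FPKM total of all genes was also higher in these knockouts, with a mean ratio of 1.04 and no overlap. As a share of that total the protein-gene ratio was 1.14, and the 4-week groups overlapped. They overlapped too relative to the nuclear genes (1.15), but not in the share of all 37 genes (1.14). At 8 weeks neither knockout group overlapped the controls in the protein-gene share. In the Lck table the controls had 7676, 7091 and 8523 FPKM and the knockouts 9622, 7339 and 5854 FPKM, a mean ratio of 0.98 with overlapping groups. The 8-week controls had 7149.8, 6391 and 7844 FPKM, the untransplanted knockouts 13836, 13030.2 and 13406 FPKM and the transplanted knockouts 10661, 11229, 16624 and 14418 FPKM.

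The 8-week ratios to control were 1.88 for the knockouts and 1.86 for the transplanted knockouts, and neither group overlapped the controls. The latter was 1.70 without transplanted replicate 3. Transplanted replicate 3 was the highest of all libraries. As a share of all FPKM, the 37 genes took between 2.81% (Lck knockout replicate 3) and 8.96% (transplanted replicate 3). In bulk samples, a change in the RNA per cell and a change in the number of cells of a type cannot be told apart. These sums are descriptions with no test.

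**Figure D2:**
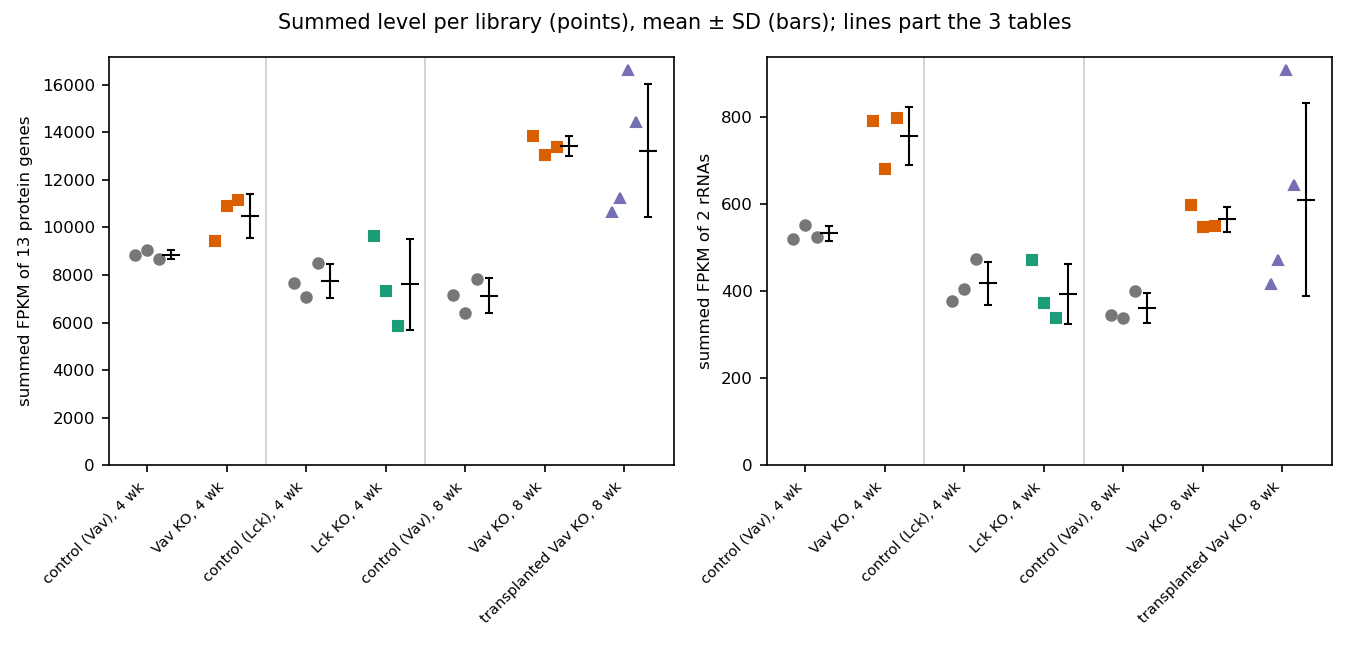
Summed FPKM of the 13 protein genes (left) and the 2 rRNAs (right) in each library (points), with mean ± SD for each group (bars, n = 3, or 4 for the transplanted knockouts). All 8-week Vav knockout libraries, transplanted or not, lie above the 8-week controls, while the Lck groups overlap.

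The first comparison set the Vav knockouts at 4 weeks against their controls. The test was limma (trend) on log2(FPKM + 1), fitted over all genes, and a gene was called where its Benjamini-Hochberg adjusted p was under 0.05. All adjusted p-values below are of that kind, and changes on this scale understate those of low genes. Of 13 protein genes 12 had 1 FPKM or more in at least 3 libraries, and 3 of those rose, as did both rRNAs. Among all 10828 genes tested, 7.63% were called higher and 6.08% lower. The 12 protein genes had a median log2 change of 0.20, against -0.01 over all genes. That median was 0.13 without knockout replicate 3 and 0.30 without knockout replicate 1, and 10 to 12 of the 12 changes were positive when a library was left out. At an unadjusted p under 0.05 there were 7 of the 15 members tested, and 29.9% of all genes.

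Among the called genes, mt-Rnr1, the small-subunit rRNA, had 253, 269.6 and 263 FPKM in the controls and 418, 364 and 393 FPKM in the knockouts, a log2 change of 0.58 (SE 0.0782, adjusted p = 0.00684). For mt-Rnr2, the large-subunit rRNA, the values were 268, 283 and 263 FPKM and 374, 317 and 406 FPKM, with a log2 change of 0.42 (SE 0.105, adjusted p = 0.0451). In both, every knockout library lay above every control.

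The complex I genes mt-Nd5 and mt-Nd6 rose by similar amounts. Controls had 559.7, 528 and 508 FPKM of mt-Nd5 and knockouts 656, 669 and 709 FPKM, a log2 change of 0.35 (SE 0.0822, adjusted p = 0.0374). For mt-Nd6 the levels were 326, 323 and 286 FPKM and 400.2, 381 and 471 FPKM, with 0.42 (SE 0.107, adjusted p = 0.0487). The ATP synthase gene mt-Atp6 went from 4.99, 5.83 and 5.13 FPKM to 6.46, 6.65 and 7.49 FPKM, a log2 change of 0.32 (SE 0.0799, adjusted p = 0.0472).

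None of these 5 genes overlapped between groups, and neither did mt-Nd1, mt-Nd2, mt-Co1 and mt-Nd4, which did not pass the test. Of all genes tested, 19.2% were higher without overlap. The log2 changes of the uncalled genes were 0.40 (adjusted p = 0.0673) for mt-Nd1, 0.28 (adjusted p = 0.14) for mt-Nd2, 0.19 (adjusted p = 0.228) for mt-Nd4, 0.18 (adjusted p = 0.435) for mt-Co1 and 0.17 (adjusted p = 0.482) for mt-Cytb. Levels of mt-Nd1 were 1283, 1256 and 1188 FPKM in the controls and 1496, 1829.9 and 1612 FPKM in the knockouts. For mt-Nd2 they were 695, 732 and 702 FPKM and 776, 978 and 852 FPKM.

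The 2 most abundant mRNAs were closer between groups. Controls had 3530.3, 3616 and 3511 FPKM of mt-Co1 and knockouts 3657, 4078 and 4359 FPKM, and for mt-Cytb 1817, 1910.5 and 1791 FPKM and 1745, 2187 and 2314 FPKM. In mt-Cytb the first knockout library lay below all controls. The mt-Nd4 levels were 619, 659.8 and 645 FPKM and 674, 732 and 799.9 FPKM.

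The low genes mt-Co2, mt-Atp8, mt-Co3 and mt-Nd4l overlapped between groups, with log2 changes of 0.01, 0.21, 0.06 and 0.12. The mt-Nd3 levels were 0.337, 0.405 and 0.614 FPKM in the controls and 0.53, 1.29 and 0.806 FPKM in the knockouts and did not reach the filter. The tRNA mt-Tp was not called, with 313, 305 and 332 FPKM and 342, 315 and 339 FPKM, a log2 change of 0.07 (adjusted p = 0.587). The call on mt-Rnr1 held in all 10 other settings and all 6 fits that left out a library. In all, 1 member was called when the libraries were scaled to the same FPKM sum, and likewise without any 1 library other than knockout replicate 2, where between 2.84% and 6.21% of all genes were called higher. The signs of the smallest changes also moved: with equal FPKM sums 11 of the 12 protein genes were positive, and with quantile normalization 10.

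Markers of cell identity moved in the same comparison. Of the 8 double-positive markers Cd4 (log2 change -0.47, adjusted p = 0.0179), Rag1 (-0.53, adjusted p = 0.0175) and Rag2 (-0.61, adjusted p = 0.0101) fell, and their sum over the 8 was 4574 to 4720 FPKM in the controls and 3294 to 3945 FPKM in the knockouts. The 4 myeloid markers summed to 0.599 to 0.644 FPKM and 1.72 to 2.81 FPKM. Of the other lists, the 4 B cell markers summed to 162 to 177 FPKM in the controls and 69.0 to 137 FPKM in the knockouts, the 5 of thymic epithelium to 1.40 to 1.67 FPKM and 0.537 to 0.661 FPKM, and the 4 of fibroblasts and endothelium to 7.80 to 9.26 FPKM and 11.1 to 13.1 FPKM. In each of the myeloid, B cell, thymic epithelium and fibroblast and endothelium lists only 1 gene reached the filter. Each of these sums may therefore rest largely on 1 gene. Of the genes tested, Itgam (myeloid, log2 change 0.90, adjusted p = 0.00512) and Pecam1 (endothelial, 0.50, adjusted p = 0.0156) rose and Epcam (epithelial, -0.80, adjusted p = 0.00326) fell. Their part in the mitochondrial levels was not tested.

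In the Lck table no member was called. Of the 15 members tested with limma, 0 passed the adjusted p and 0 had an unadjusted p under 0.05. Of all 10946 genes tested, 0.201% were called higher and 0.804% lower, and 1503 had an unadjusted p under 0.05. The 12 protein genes tested had a median log2 change of -0.09, from -0.58 for mt-Nd4l to 0.11 for mt-Nd6, against 0.02 over all genes. That median was 0.10 without knockout replicate 3, -0.24 without knockout replicate 1 and -0.02 without control replicate 3. Without knockout replicate 1 none of the 12 changes was positive and 3 members had an unadjusted p under 0.05, with 0 called. In that fit 16% of all genes had an unadjusted p under 0.05.

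Lck controls had 2837, 2699.7 and 3212 FPKM of mt-Co1 and knockouts 3589.8, 2691 and 2252 FPKM. For mt-Cytb the levels were 1592, 1452 and 1876 FPKM and 1945, 1584 and 1258 FPKM. For mt-Nd1 they were 1304, 1151 and 1272 FPKM and 1633, 1117 and 824 FPKM. In each of the 3 genes the first knockout library was the highest of the 6 and the third the lowest, so the groups overlapped on both sides.

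The same order held in mt-Nd2, mt-Nd4 and mt-Nd5. Levels of mt-Nd2 were 653, 616 and 678 FPKM in the controls and 818, 608 and 467 FPKM in the knockouts, and of mt-Nd4 533, 526 and 588 FPKM and 662, 499.6 and 408 FPKM. Nd5 mRNA had 427, 380.5 and 503 FPKM and 551, 484 and 372 FPKM, a log2 change of 0.09 (SE 0.167, adjusted p = 0.873). Nd6 mRNA had 299, 237 and 359 FPKM and 387, 326 and 252 FPKM, with 0.11 (SE 0.202, adjusted p = 0.881); here the lowest library was a control. All 15 members overlapped between groups, where 11.7% of all genes were higher and 8.27% lower without overlap.

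Neither rRNA passed the test. Controls had 199.7, 211 and 246 FPKM of mt-Rnr1 and knockouts 248, 201 and 174 FPKM, a log2 change of -0.09 (adjusted p = 0.862). For mt-Rnr2 they had 178, 193 and 227 FPKM and 224, 172 and 165 FPKM, a log2 change of -0.10 (adjusted p = 0.835). The level of mt-Tp was 217, 218 and 238 FPKM and 240.0, 253 and 171 FPKM.

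The low genes had few reads in this table. For mt-Nd4l the controls had 1.52, 1.86 and 1.15 FPKM and the knockouts 2.18, 0 and 0.443 FPKM, where the 0 belongs to the library of lowest depth. Levels of mt-Co2 were 15.4, 6.99 and 8.28 FPKM and 15.5, 7.73 and 5.77 FPKM, and of mt-Atp8 1.58, 7.21 and 7.69 FPKM and 3.17, 6.26 and 3.23 FPKM. For mt-Nd3, below the filter, they were 0.926, 0.704 and 0.392 FPKM and 0.825, 2.10 and 0.946 FPKM, at most 5 reads each. The remaining values were 4.73, 4.95 and 6.61 FPKM and 6.32, 5.35 and 4.16 FPKM for mt-Atp6, and 7.56, 7.58 and 10.9 FPKM and 7.60, 8.14 and 6.21 FPKM for mt-Co3.

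The spread of the Lck knockouts was wide, with a summed protein level of 7605 ± 1898 FPKM (SD, n = 3) against 7763 ± 720 FPKM (SD, n = 3) in the controls. The 2 knockout libraries with 22949 and 18534 FPKM of Gm23935 had the lower mitochondrial sums. In a fit chosen after seeing the data that left both out, the median log2 change of the protein genes was 0.32 and 0 members were called, with the lone knockout library assumed to vary like the controls. The summed double-positive markers were 4525 to 4744 FPKM in the controls and 4197 to 4405 FPKM in the knockouts. The part of Gm23935 in these values was not tested.

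Whether the Vav and Lck deletions differed at 4 weeks was tested as an interaction over the 12 libraries of both tables. No member passed (0 of 15 with limma), where 1.65% of 10541 genes were called in each direction, 3.3% in all. At an unadjusted p under 0.05 there were 2 of the 15 members, and 16.9% of all genes. The 12 protein genes had positive differences (11 of 12 with quantile normalization, and 11 or 12 when a library was left out), with a median of 0.30 on the log2 scale, against -0.02 over all genes. The median was 0.16 without Lck knockout replicate 3, 0.19 without Lck control replicate 3 and 0.46 without Lck knockout replicate 1. The differences of the rRNAs were 0.66 (SE 0.17, adjusted p = 0.0632) for mt-Rnr1 and 0.52 (SE 0.187, adjusted p = 0.173) for mt-Rnr2. With Lck knockout replicate 1 left out, mt-Rnr1 and mt-Nd4l were called, and with median-of-ratios scaling mt-Rnr1 was.

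**Figure D3:**
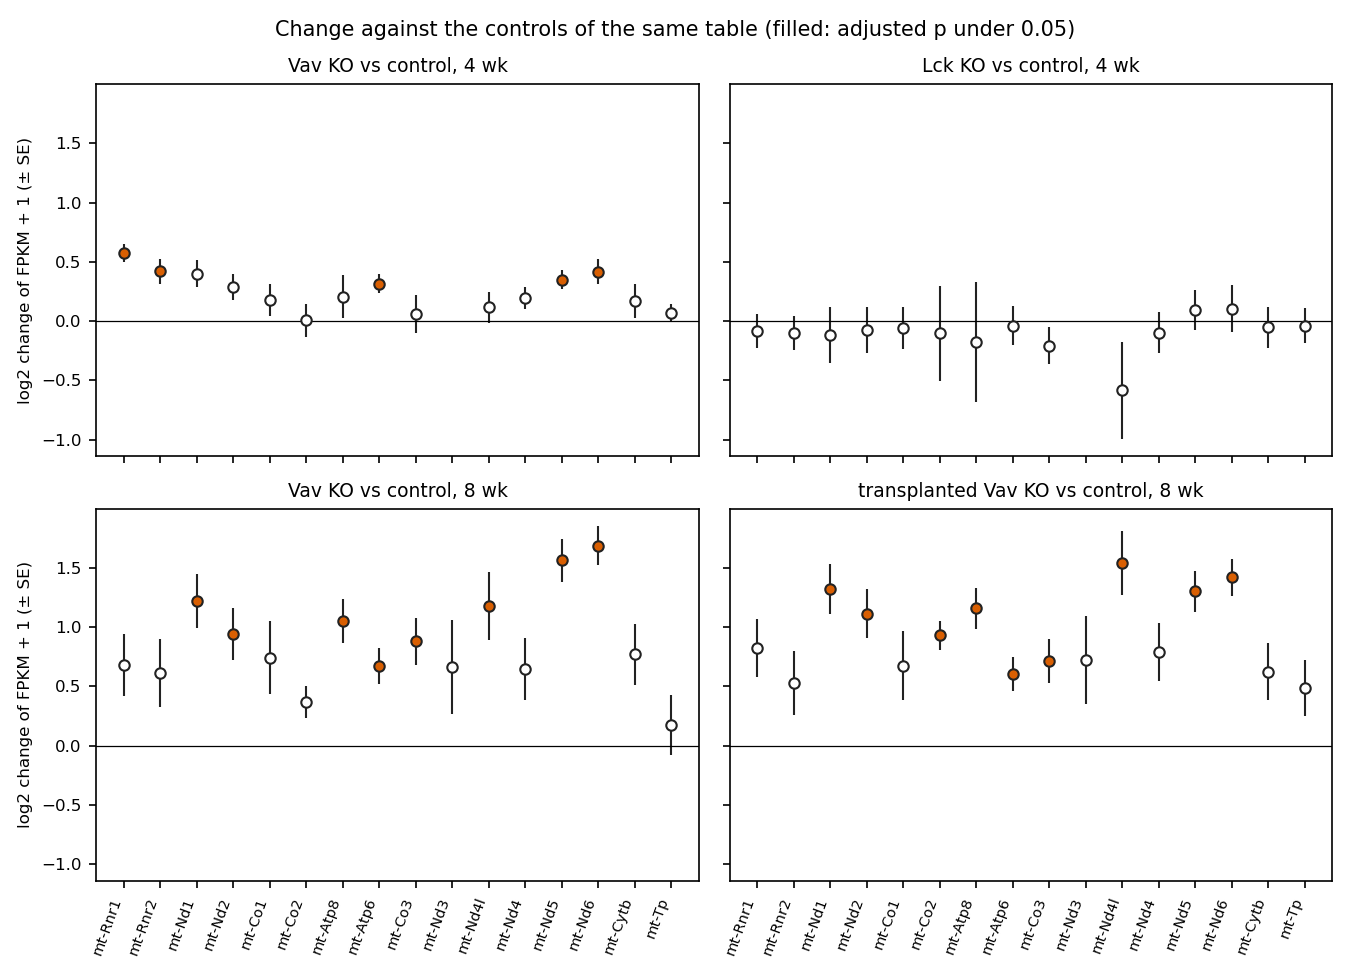
Log2 change of FPKM + 1 against the controls of the same table, with its standard error, for each tested protein gene, rRNA and mt-Tp, in genome order. Filled points passed an adjusted p under 0.05: 5 in the Vav knockouts at 4 weeks, 0 in the Lck knockouts, 8 in the Vav knockouts at 8 weeks and 9 in the transplanted knockouts.

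At 8 weeks the Vav knockouts had higher levels of all 13 protein genes than the controls, and 8 of the 13 rose by the test. Of all 11632 genes tested, 4.65% were called higher and 4.45% lower, 9.1% in all. The median log2 change of the protein genes was 0.88, against -0.0049 over all genes, and ranged from 0.37 for mt-Co2 to 1.69 for mt-Nd6. None of the 13 overlapped between the groups, where 28.9% of all genes were higher and 28.7% lower without overlap.

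The neighbours mt-Nd6 and mt-Nd5, both of complex I, had the largest changes among the protein genes. For mt-Nd6 the controls had 257, 242 and 275 FPKM and the knockouts 875, 796 and 826 FPKM, a log2 change of 1.69 (SE 0.167, adjusted p = 0.000643). For mt-Nd5 they had 358, 317 and 387 FPKM and 1131, 1008 and 998 FPKM, a log2 change of 1.56 (SE 0.185, adjusted p = 0.00165). Next came mt-Nd1, whose controls had 908, 708 and 959.9 FPKM and knockouts 2079, 1908 and 1963 FPKM, a log2 change of 1.22 (SE 0.225, adjusted p = 0.0126).

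Other complex I genes rose as well. Levels of mt-Nd2 were 516, 458 and 507 FPKM in the controls and 942, 941 and 965 FPKM in the knockouts, a log2 change of 0.94 (SE 0.22, adjusted p = 0.031). Those of mt-Nd4l, a low gene, were 3.45, 2.17 and 4.15 FPKM and 12.7, 7.73 and 6.08 FPKM, with 1.18 (SE 0.286, adjusted p = 0.0356). The complex I genes that did not pass were mt-Nd4, with 535, 501 and 606 FPKM and 863, 861 and 839 FPKM (log2 change 0.65, adjusted p = 0.144), and mt-Nd3, with 0.982, 1.06 and 1.36 FPKM and 1.65, 3.20 and 2.44 FPKM (log2 change 0.66, adjusted p = 0.294).

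Both ATP synthase genes rose. Controls had 14.2, 14.5 and 11.6 FPKM of mt-Atp8 and knockouts 28.9, 30.4 and 27.3 FPKM, a log2 change of 1.05 (SE 0.185, adjusted p = 0.0104). For mt-Atp6, which shares 43 bases with mt-Atp8, the values were 19.0, 20.2 and 19.0 FPKM and 33.2, 32.2 and 29.3 FPKM, with 0.67 (SE 0.152, adjusted p = 0.0278).

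Of the complex IV genes 1 of 3 passed. It was mt-Co3, with 18.2, 11.5 and 18.5 FPKM in the controls and 28.8, 32.2 and 28.4 FPKM in the knockouts, a log2 change of 0.88 (SE 0.197, adjusted p = 0.027). Co1 mRNA had 2920.2, 2616 and 3284 FPKM and 5103, 4720.1 and 4879 FPKM, a log2 change of 0.74 (adjusted p = 0.149), and mt-Co2 had 25.6, 24.0 and 21.5 FPKM and 34.6, 31.1 and 27.2 FPKM, a log2 change of 0.37 (adjusted p = 0.107). The complex III gene mt-Cytb had 1575, 1476 and 1748 FPKM and 2702, 2660.2 and 2814 FPKM, a log2 change of 0.77 (adjusted p = 0.0873).

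The rRNAs were higher in every knockout library but were not called. For mt-Rnr1 the values were 192, 165 and 214 FPKM and 321, 298 and 292 FPKM, a log2 change of 0.68 (adjusted p = 0.125), and for mt-Rnr2 154, 174 and 186 FPKM and 277, 251 and 258 FPKM, a log2 change of 0.61 (adjusted p = 0.191). The tRNA mt-Tp overlapped between groups, with 158, 174 and 174 FPKM and 169, 197 and 206 FPKM, a log2 change of 0.17 (adjusted p = 0.672). Of mt-Tc, mt-Ts1 and mt-Te, the other tRNAs tested, 0 were called. For mt-Tc the controls had 0, 0 and 0 FPKM and the knockouts 3.16, 1.05 and 3.22 FPKM, each at most 4 reads.

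The calls on mt-Nd5 and mt-Nd6 held in all 10 fits that left out a library, and with no filter on low values that on mt-Nd5 was lost (adjusted p = 0.0584). The 10 libraries of the table share 1 estimate of the spread, and the number of called members moved with single libraries. It was 15 without transplanted replicate 3, where 16.6% of all genes were called higher, and the calls then included both rRNAs, mt-Co1, mt-Nd3, mt-Nd4 and mt-Cytb. It was 2 without any 1 of the 3 controls (0.664% to 0.891% of all genes) and 3 or 4 without any 1 of the knockouts (1.5% to 2.03%). When the libraries were scaled to the same FPKM sum, the median over all genes shifted to -0.12 and that of the protein genes to 0.74.

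Over the same libraries the 8 double-positive markers summed to 4549 to 4919 FPKM in the controls and 2198 to 2465 FPKM in the knockouts. Rag2 (log2 change -3.32, adjusted p = 0.00734) and Rag1 (-1.45, adjusted p = 0.0475) were the 2 of 8 markers that fell by the test. Without transplanted replicate 3 in the fit, 4 of the 8 fell, where 14.2% of all genes were called lower. The 4 myeloid markers summed to 0.62 to 1.87 FPKM in the controls and 2.54 to 8.90 FPKM in the knockouts, and the 4 erythroid markers to 13.9 to 30.7 FPKM and 3.44 to 16.7 FPKM. The 4 B cell markers summed to 179 to 214 FPKM and 95.2 to 128 FPKM, and the 4 of fibroblasts and endothelium to 7.25 to 7.97 FPKM and 11.4 to 14.9 FPKM. The 4 dendritic markers, all below the filter, summed to 0.0318 to 0.1002 FPKM and 0.273 to 0.376 FPKM. Ighm fell (B cell, -0.87, adjusted p = 0.0136) and Pecam1 rose (endothelial, 0.71, adjusted p = 0.0129), each the only gene of its list that was tested. Of the myeloid and the erythroid markers 2 of 4 each were tested, and 0 were called. The part of these differences in the mitochondrial levels was not tested.

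The transplanted knockouts were compared with the same 8-week controls, so this comparison and the last share the control libraries. Of 13 protein genes 9 rose, where 4.59% of the 11632 genes were called higher and 4.6% lower, 9.19% in all. The median log2 change was 0.93, against -0.01 over all genes. In 12 of 13 protein genes the groups did not overlap, where 11.5% of all genes were higher without overlap, and the exception was mt-Nd3.

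In the transplanted libraries mt-Nd6 had 629, 619, 768 and 761 FPKM, a log2 change of 1.42 (SE 0.156, adjusted p = 0.00086). The levels of mt-Nd5 were 788, 774, 937 and 1004 FPKM, with 1.30 (SE 0.173, adjusted p = 0.00236), and those of mt-Nd1 1891, 1926, 2426 and 2336 FPKM, with 1.32 (SE 0.21, adjusted p = 0.0059). In each of the 3 genes all 4 transplanted libraries lay above all controls.

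For mt-Nd2 the transplanted libraries had 833, 938, 1325 and 1258 FPKM, a log2 change of 1.11 (SE 0.205, adjusted p = 0.0118), and for mt-Nd4l 10.9, 7.90, 13.6 and 13.1 FPKM, with 1.54 (SE 0.268, adjusted p = 0.00908). The ATP synthase genes had 25.5, 25.5, 39.5 and 36.4 FPKM of mt-Atp8, with 1.16 (SE 0.173, adjusted p = 0.00433), and 25.5, 25.5, 34.6 and 35.6 FPKM of mt-Atp6, with 0.60 (SE 0.142, adjusted p = 0.0312). Of complex IV, mt-Co2 had 49.8, 40.5, 45.7 and 48.7 FPKM, a log2 change of 0.93 (SE 0.124, adjusted p = 0.00232), and mt-Co3 31.0, 21.9, 24.0 and 29.9 FPKM, with 0.71 (SE 0.184, adjusted p = 0.0429).

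The other 4 protein genes did not pass the test. Co1 mRNA had 3768, 3746, 6422 and 5259 FPKM, a log2 change of 0.67 (adjusted p = 0.177), and mt-Cytb had 1895, 2343, 3198 and 2577 FPKM, a log2 change of 0.62 (adjusted p = 0.138). For mt-Nd4 the values were 712, 759, 1391 and 1055 FPKM, a log2 change of 0.79 (adjusted p = 0.0796), and for mt-Nd3 3.58, 3.66, 0.564 and 3.56 FPKM, with 0.72 (adjusted p = 0.253). Replicate 3 was the highest in mt-Co1, mt-Cytb and mt-Nd4 and the lowest in mt-Nd3. Without it mt-Nd3 had a log2 change of 1.11 (adjusted p = 0.0023), mt-Nd4 0.60 (adjusted p = 0.0218) and mt-Cytb 0.50 (adjusted p = 0.0363), all called, and mt-Co1 0.52 (adjusted p = 0.0586). With quantile normalization mt-Cytb had a change of -0.02.

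Neither rRNA was called. In the transplanted libraries mt-Rnr1 had 257, 266, 522 and 353 FPKM, a log2 change of 0.82 (adjusted p = 0.0673), and mt-Rnr2 had 160.0, 205, 388 and 292 FPKM, a log2 change of 0.53 (adjusted p = 0.249). The first transplanted library lay within the controls in mt-Rnr2. Mt-Tp had 207, 159.9, 292 and 326 FPKM, a log2 change of 0.49 (adjusted p = 0.222), and overlapped the controls. Without replicate 3 mt-Rnr1 was called (0.61, adjusted p = 0.0153) and mt-Rnr2 had 0.31 (adjusted p = 0.255).

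Without transplanted replicate 3, 13 members were called, where 18.3% of all genes were called higher. There were 5 without control replicate 1 (1.12% of all genes), 4 without control replicate 2 (0.978%) and 6 without control replicate 3 (1.27%). The calls on mt-Co2, mt-Atp8, mt-Nd5 and mt-Nd6 held in all 10 fits that left out a library, and with no filter that on mt-Nd5 was lost (adjusted p = 0.0794). The double-positive markers summed to 1345, 1667, 3441 and 2296 FPKM in the 4 transplanted libraries, and Dntt (-1.66, adjusted p = 0.0468), Rag1 (-1.54, adjusted p = 0.0308) and Rag2 (-3.28, adjusted p = 0.0049) of the 8 fell against the controls, as did Ighm (-0.81, adjusted p = 0.0129), while Pecam1 rose (0.56, adjusted p = 0.0249). When replicate 3 was left out, all 8 double-positive markers fell (median log2 change -1.71), where 14.9% of all genes were called lower. The erythroid markers (2 of 4 tested) summed to 43.8, 49.9, 72.5 and 26.9 FPKM. Sums of the myeloid markers (2 of 4 tested) were 3.15, 4.92, 19.7 and 2.12 FPKM. Their part in the mitochondrial levels was not tested.

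Transplanted and untransplanted Vav knockouts were compared within the same fit. No gene at all was called (0% of 11632 in either direction with limma), and of the 19 members tested 0 were called. At an unadjusted p under 0.05 there was 1 of the 19 members, and 5.85% of all genes. That member was mt-Co2, with 0.56 (SE 0.124, adjusted p = 0.518). The protein genes had a median log2 difference of 0.06, from -0.27 for mt-Nd6 to 0.56 for mt-Co2, against -0.01 over all genes. Without transplanted replicate 3 the median was -0.04, 0 members were called and 3 had an unadjusted p under 0.05, as did 9.58% of all genes. In mt-Nd6 every transplanted library lay below every untransplanted one and in mt-Co2 above, where 2.53% and 3.46% of all genes were lower and higher without overlap.

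The Vav effect was larger at 8 weeks than at 4 weeks for 9 of the 12 protein genes tested, by the interaction over the 12 untransplanted Vav libraries. Among 10489 genes, 8.87% were called higher in this contrast and 9.37% lower. The differences were 1.27 (SE 0.135, adjusted p = 0.00064) for mt-Nd6 and 1.21 (SE 0.129, adjusted p = 0.00064) for mt-Nd5 on the log2 scale, and 0.82 (SE 0.178, adjusted p = 0.0128) for mt-Nd1. Those of mt-Atp8 (0.85, adjusted p = 0.0256), mt-Nd2 (0.66, adjusted p = 0.00889), mt-Cytb (0.60, adjusted p = 0.0365), mt-Co1 (0.56, adjusted p = 0.0488), mt-Nd4 (0.45, adjusted p = 0.0365) and mt-Atp6 (0.36, adjusted p = 0.0401) were called too. The protein genes' median was 0.74, against -0.02 over all genes.

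For the rRNAs the difference was not called: it was 0.10 (SE 0.135, adjusted p = 0.64) for mt-Rnr1 and 0.19 (SE 0.141, adjusted p = 0.381) for mt-Rnr2. The uncalled protein genes were mt-Co2 (0.36, adjusted p = 0.204), mt-Co3 (0.82, adjusted p = 0.052) and mt-Nd4l (1.06, adjusted p = 0.0521). Age and table coincide here, and the effect of each cannot be told apart. The calls on mt-Nd1, mt-Nd2, mt-Nd5 and mt-Nd6 held in all 12 fits that left out a library, while between 4 and 8 members in all were called. The count was 4 or 5 without control replicate 2 or 3 or knockout replicate 1 of 4 weeks, or control replicate 1 or 2 or knockout replicate 1 of 8 weeks, where 4.92% to 8.16% of all genes were called higher.

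Within libraries, mt-Nd6 was set against the 12 heavy-strand protein genes, as the log2 ratio of its FPKM to their sum. The ratios were -4.71, -4.76 and -4.87 in the 4-week Vav controls and -4.50, -4.79 and -4.50 in the knockouts. In the Lck table they were -4.63, -4.85 and -4.51 and -4.58, -4.43 and -4.48. At 4 weeks both pairs of groups overlapped.

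At 8 weeks the ratios were -4.75, -4.67 and -4.78 in the controls, -3.89, -3.94 and -3.93 in the knockouts and -4.00, -4.10, -4.37 and -4.16 in the transplanted knockouts. The mean was 0.81 higher in the knockouts than in the controls, and 0.58 higher in the transplanted knockouts. These 3 groups did not overlap. Against only mt-Nd1, mt-Nd2, mt-Nd5 and mt-Cytb, which share little or nothing with nuclear copies, the order was the same, with means of -3.68 in the controls, -3.01 in the knockouts and -3.24 in the transplanted knockouts.

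Set against mt-Nd5 alone, the heavy-strand gene next to it, mt-Nd6 differed less between the groups. The log2 ratio of mt-Nd6 to mt-Nd5 was -0.48, -0.39 and -0.49 in the 8-week controls, -0.37, -0.34 and -0.27 in the knockouts and -0.33, -0.32, -0.29 and -0.40 in the transplanted knockouts. It was 0.13 higher in the knockouts, without overlap, and 0.12 higher in the transplanted knockouts, with overlap. The log2 ratio of mt-Nd5 to mt-Co1 was -3.03, -3.04 and -3.09, -2.17, -2.23 and -2.29 and -2.26, -2.27, -2.78 and -2.39 in the same groups, so that the knockouts lay 0.82 above the controls.

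Across these groups the log2 ratio of the light-strand gene mt-Nd6 to its neighbour mt-Nd5 thus differed by less than that of mt-Nd5 to mt-Co1. This contrast depended on the heavy-strand gene chosen. Against the 8-week controls, mt-Nd5 and mt-Nd1 had log2 changes of 1.56 and 1.22 in the untransplanted knockouts. In the transplanted knockouts their log2 changes were 1.30 and 1.32. With no strand in the counting stated, the split of these reads between mt-Nd6 and an antisense transcript of the heavy strand, or between mt-Nd5 and one of the light strand, was not tested. The ratios are descriptions with no test.

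**Figure D4:**
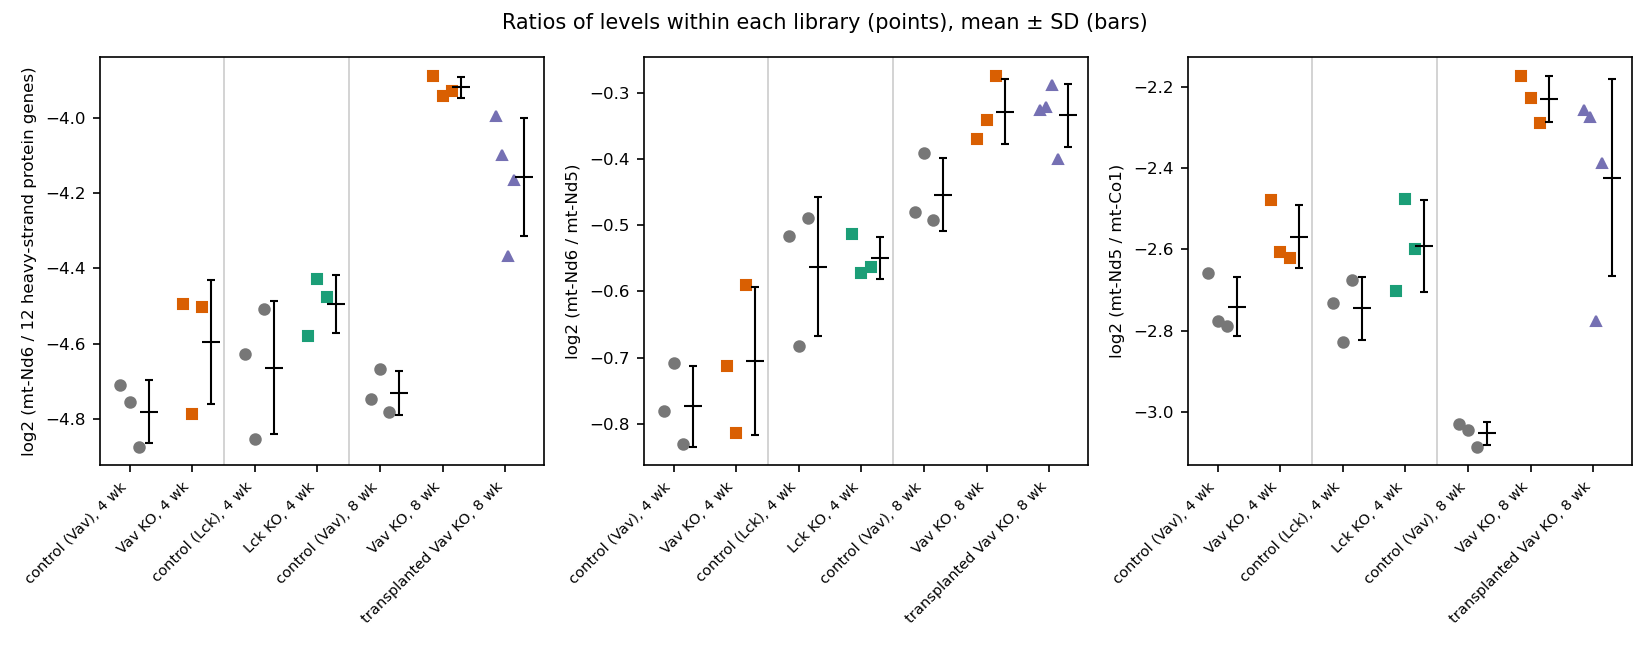
Log2 ratios of FPKM within each library (points) with the group mean ± SD (bars): mt-Nd6 to the 12 heavy-strand protein genes (left), mt-Nd6 to mt-Nd5 (middle) and mt-Nd5 to mt-Co1 (right). The left and right ratios are higher in all 8-week knockout libraries than in the 8-week controls, and the middle one differs from the controls by 0.13 in the untransplanted and 0.12 in the transplanted knockouts.

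The rRNAs were also set against the mRNAs within libraries. The log2 ratio of summed rRNA to summed protein-gene FPKM was -4.09, -4.03 and -4.04 in the 4-week Vav controls and -3.57, -4.00 and -3.80 in the knockouts. At 8 weeks it was -4.37, -4.24 and -4.29 in the controls and -4.53, -4.57 and -4.61 in the knockouts. The knockouts were higher at 4 weeks and lower at 8 weeks, without overlap in either case, and the transplanted knockouts, at -4.68, -4.58, -4.19 and -4.48, overlapped the controls.

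The copy of mt-Nd3 on chromosome 1 was higher in the Vav knockouts at both ages. For Gm28438 the 4-week Vav controls had 5.35, 6.04 and 5.49 FPKM and the knockouts 10.9, 10.6 and 11.1 FPKM, a log2 change of 0.84 (adjusted p = 0.00138). In the Lck table it had 5.79, 4.62 and 7.12 FPKM in the controls and 4.58, 9.51 and 3.82 FPKM in the knockouts, where the high second knockout rests on 18 implied reads. The 8-week controls had 4.13, 3.48 and 5.91 FPKM, the untransplanted knockouts 14.5, 13.9 and 15.2 FPKM (log2 change 1.52, adjusted p = 0.0404) and the transplanted knockouts 13.39, 13.01, 3.841 and 12.38 FPKM (log2 change 0.98, adjusted p = 0.123). Without transplanted replicate 3 the last change was 1.36 (adjusted p = 0.00059).

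Transplanted replicate 3 had a Gm28438 level within the range of the controls and the other 3 lay above all controls and below all untransplanted knockouts. Relative to the 6 other copies of chromosome 1, the log2 ratio of Gm28438 was -2.35, -2.50 and -2.48 in the 4-week Vav controls and -1.64, -1.83 and -1.78 in the knockouts, without overlap. It was -4.77, -4.90 and -4.15 in the 8-week controls, -3.56, -3.64 and -3.47 in the knockouts and -3.59, -3.50, -5.88 and -3.99 in the transplanted knockouts. The reference bases differ between mt-Nd3 and Gm28438 by T3C, shown above, and values per gene do not show which base the mice of each group carried there.

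**Figure D5:**
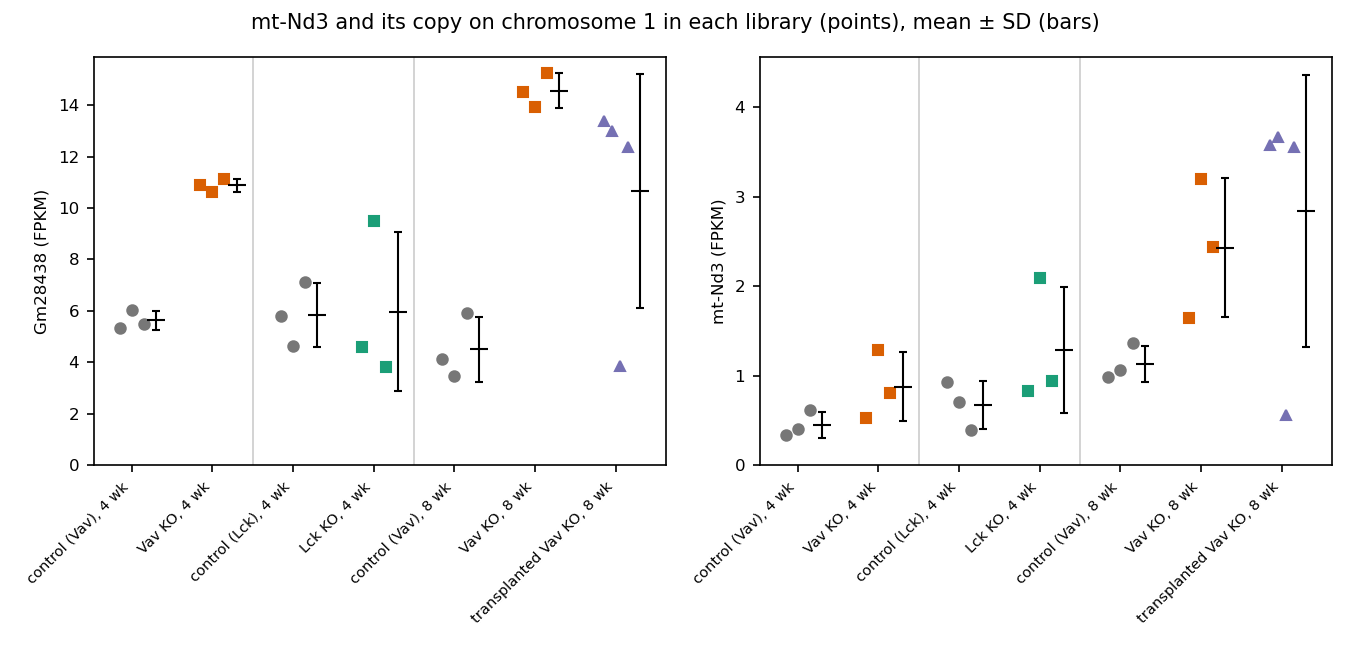
FPKM of Gm28438 (left) and mt-Nd3 (right) in each library (points), with the group mean ± SD (bars, n = 3, or 4 for the transplanted knockouts). Gm28438 is higher in all Vav knockout libraries than in the controls of their table except transplanted replicate 3, at 3.84 FPKM.

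The nuclear genes that share at least 1 window with a mitochondrial gene were counted in each comparison. Of 14 such genes in the tables, 8 were tested at 4 weeks, of which 2 rose in the Vav knockouts (Gm28438 and Gm10925) and 0 in the Lck knockouts. At 8 weeks 9 were tested, of which 4 rose in the knockouts and 5 in the transplanted knockouts. Of all genes, 7.63% were called higher at 4 weeks, 4.65% in the 8-week knockouts and 4.59% in the transplanted ones. The 8-week counts were 6 and 8 of 9 without transplanted replicate 3, against 16.6% and 18.3% of all genes. Gm28437 and Gm10925 had log2 changes of 0.88 (adjusted p = 0.00294) and 0.81 (adjusted p = 0.0171) in the 8-week knockouts. Since fragments of the copies and of the mitochondrial genes share their sequence, these counts are not independent of those for the mitochondrial genes they match. This holds for Gm28438 and mt-Nd3 as for the copies of mt-Co3 and mt-Atp6.

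The nuclear genes that serve the mitochondrial genome were followed in a list of 67 symbols for its transcription, RNA processing, RNA stability and DNA maintenance, with upstream regulators. Some genes stand in it under an old and a new symbol, such as 1110008L16Rik and Prorp, so the distinct genes are fewer. In the Vav knockouts at 4 weeks 5 of 63 tested rose and 0 fell, with a median log2 change of 0.09. At 8 weeks 7 of 64 rose and 0 fell in the knockouts (median 0.24), and 3 of 64 rose in the transplanted knockouts (median 0.17). In the Lck knockouts 0 of 61 were called (median 0.03). Set against the shares of all genes called higher, given above, the counts at 4 weeks and in the transplanted knockouts were near the background. Without transplanted replicate 3, 22 of 64 rose and 1 fell in the 8-week knockouts and 16 rose and 2 fell in the transplanted ones, where 16.6% and 18.3% of all genes were called higher.

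None of the 10 genes listed under transcription, which include the polymerase Polrmt and the packaging factor Tfam, was called in these 4 comparisons with limma. When transplanted replicate 3 was left out, 2 of the 10 rose in the 8-week knockouts, and 1 rose and 1 fell in the transplanted knockouts. At 8 weeks the genes of smallest adjusted p were 1110008L16Rik (Prorp), which cuts the 5′ ends of mitochondrial tRNAs, with a log2 change of 0.94 (adjusted p = 0.021), the regulator Myc with 3.16 (adjusted p = 0.0277), the mitochondrial topoisomerase Top1mt with 1.72 (adjusted p = 0.0278), and the tRNA CCA-adding enzyme Trnt1 with 0.60 (adjusted p = 0.0336). In the transplanted knockouts they were 1110008L16Rik with 0.86 (adjusted p = 0.0207), Tbrg4 with 0.50 (adjusted p = 0.0398) and Myc with 2.57 (adjusted p = 0.0436). At 4 weeks they were Myc with 1.51 (adjusted p = 0.00468), the tRNA methyltransferase Trmt5 with 0.30 (adjusted p = 0.0172), the pseudouridine synthase Pus1 with 0.48 (adjusted p = 0.027) and the RNA methyltransferase Nsun2 with 0.46 (adjusted p = 0.0334).

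The nuclear partners of the mitochondrial products were taken as 2 further lists. Of 77 mitochondrial ribosomal protein genes 8 rose and 1 fell in the Vav knockouts at 4 weeks, and 3 of 76 rose at 8 weeks, namely Mrps5 (log2 change 0.68, adjusted p = 0.0318), Mrps27 (0.97, adjusted p = 0.0356) and Mrpl4 (0.51, adjusted p = 0.0409). In the Lck knockouts 0 of 77 were called and in the transplanted knockouts 1 of 76 rose. Of 79 nuclear respiratory-chain subunits, taken by symbol from a list added after seeing the data, 10 rose in the Vav knockouts at 4 weeks and 4 at 8 weeks, 1 in the transplanted and 0 in the Lck knockouts. Their median log2 changes were 0.12, 0.27, 0.08 and 0.06. The median of the 13 mitochondrial protein genes at 8 weeks was 0.88.

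All genes called higher made up 7.63% at 4 weeks and 4.65% at 8 weeks, so the 8-week counts of both lists were near the background. The median of the ribosomal protein genes was 0.12 at 4 weeks and 0.30 at 8 weeks. In the contrast of ages 13 of 76 ribosomal protein genes and 12 of 79 respiratory-chain subunits were called higher and 0 lower, where 8.87% of all genes were called higher. Without transplanted replicate 3, 29 of 76 and 29 of 79 rose in the 8-week knockouts (16.6% of all genes) and 24 of 76 and 32 of 79 in the transplanted knockouts (18.3%), and 1 ribosomal protein gene fell in the latter.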

How the data were processed

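RNA from 22 libraries was analysed as 3 tables of FPKM values per Ensembl gene that the authors deposited. Per the labels' protocols, RNA was isolated with RNeasy kits and libraries were made with the NuGEN Ovation Ultralow system. The submitters' processing notes name Trimmomatic 0.33, STAR, HTSeq 0.6.1, DESeq2 and the build mm10, without role or order. The gene lengths behind the FPKM, the handling of fragments that match 2 places and the use of strand are not given in the sources used here. The tables held no counts, so no count test was run. Low values of single-exon genes lay on steps of whole reads (93.7% to 95.9% whole within 0.03 reads), which gave the implied depths of 5.48 to 37.5 M reads. These cover counting error only, since PCR copies are not independent molecules.

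Symbols, positions and sequences came from the GENCODE M21 annotation and transcripts on mm10, and 42462 of 43430 identifiers matched. No 2 libraries were identical (0 pairs), and 0 columns were left unused. Groups followed the labels. A gene entered a fit when 3 or more libraries of every table used reached 1 FPKM. The test was limma 3.58.1 (trend, R 4.3.3) on log2(FPKM + 1), with Benjamini-Hochberg adjustment over all genes tested. The 10 libraries of the 8-week table were fitted together, and the 2 interactions were fitted over 12 libraries. Scripts were tested on simulated data. Nuclear copies were found as 50-base windows shared with other transcripts.

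All protein genes and rRNAs are named, tRNAs where called or among the 3 highest by mean, at most 4 called genes of the machinery list per comparison by adjusted p, and at most 3 names per comparison of the other lists. The members and lists were chosen with earlier results of these data known. Alternatives were the pseudocount, the filter, 4 scalings, the variance model, a replicate block and leaving out each library. Replicate numbers did not pair the libraries.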

Additional observations from a re-analysis of the deposited data

Results flagged for a closer look

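The third transplanted library lay far from the other 3 in mt-Nd3 and in its chromosome 1 copy. For mt-Nd3 the gap between its 0.564 FPKM and the next library was 0.965 of the group's whole range, and for Gm28438, at 3.84 FPKM, it was 0.894, both above Dixon's 95% critical value for 4 libraries. Chance flags about 1 group in 20, and 23 values were examined. The 2 genes differ by 1 base in 345 aligned, so their values cannot be taken as independent. Gm28438 rested on 27 implied reads in the third library, against 63, 88 and 69 in replicates 1, 2 and 4. The reads of mt-Nd3, of similar length and lower FPKM, were fewer. The same library had the highest double-positive marker sum of the transplanted group, 3441 FPKM, and its part in these 2 values was not tested.

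The Vav effect differed between 8 and 4 weeks, by the interaction test with limma, for 9 protein genes. On the log2 scale the difference was 1.27 for mt-Nd6, 1.21 for mt-Nd5, 0.85 for mt-Atp8, 0.82 for mt-Nd1, 0.66 for mt-Nd2, 0.60 for mt-Cytb, 0.56 for mt-Co1, 0.45 for mt-Nd4 and 0.36 for mt-Atp6. Age and table coincide and cannot be told apart.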

How the results depend on the processing

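The number of members called is given here with the share of all genes called higher in brackets. In the Vav knockouts at 4 weeks it was 5 (7.63%), and 1 with no filter (2.6%), 1 with equal FPKM sums (5.6%) and 1 with equal sums of nuclear genes (5.67%). It was 2 with quantile normalization (7.6%) and 1 to 4 when a library was left out (2.84% to 7.23%). In the Lck knockouts it was 0 throughout. At 8 weeks it was 8 (4.65%), and 4 with no filter (1.42%), 5 with equal FPKM sums (3.92%) and 5 with equal nuclear sums (4.49%). It was 2 to 15 when a library was left out (0.664% to 16.6%). In the transplanted knockouts it was 9 (4.59%), and 5 with no filter (1.7%) and 4 to 13 when a library was left out (0.978% to 18.3%). Between transplanted and untransplanted knockouts it was 0 in every setting. For Vav against Lck it was 0 (1.65%), 1 with median-of-ratios scaling (1.86%) and 0 to 2 when a library was left out (0.721% to 2.14%). For 8 against 4 weeks it was 9 (8.87%), and 2 with no filter (3.52%), 5 with equal FPKM sums (5.61%) and 5 with equal nuclear sums (5.98%). It was 5 with quantile normalization (9.07%) and 4 to 8 when a library was left out (4.92% to 9.89%). The cause was not tested, other than that no filter tests more genes and leaving out a library uses fewer samples. No member that was called changed sign.

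With the replicate number as a block, 1, 0, 3, 5, 0, 0 and 5 members were called in the order above. Of all genes 4.63%, 0%, 2.48%, 2.47%, 0%, 0.712% and 5.63% were then called higher. Same-numbered libraries had correlations of their deviations from -0.11 to 0.18, and 1 of 3 correlated best with its own number in each 4-week table, so the numbers were not taken as pairs.

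Equal FPKM sums moved all genes called higher and lower from 826 and 658 to 606 and 1001 at 4 weeks, and from 930 and 983 to 588 and 1234 in the contrast of ages (627 and 1045 with equal nuclear sums).

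The ratio of mt-Nd6 to the heavy-strand genes differed by 0.19 at 4 weeks (0.14 to 0.28 leaving out a library), 0.17 in the Lck table (0.07 to 0.25), 0.81 at 8 weeks (0.79 to 0.84), 0.58 in the transplanted knockouts (0.52 to 0.65) and -0.24 between these and the untransplanted ones (-0.29 to -0.17). With mt-Nd5 as the denominator it was 0.013 in the Lck table, 0.13 at 8 weeks, 0.12 in the transplanted knockouts and -0.0057 between knockouts. With the median of the heavy-strand genes it was 0.31 in the transplanted knockouts and -0.52 between knockouts.

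Few reads limit the 6 low genes and the tRNAs, and 3 libraries a group limit all tests.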
